A study of Mus musculus with 30 samples.

Results

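MHC class I molecules and the machinery that loads them with peptide were followed in mouse microglia. The set was chosen by gene symbol and named 10 genes: the heavy chains H2-K1 and H2-D1, the light chain B2m, the peptide transporter subunits Tap1 and Tap2, tapasin (Tapbp), the class Ib heavy chain H2-T23, the transcriptional regulator Nlrc5, and the immunoproteasome subunits Psmb8 and Psmb9. The deposited table holds 1 row for each of 9 of these genes among its 14225 rows. Tapbp has no row and was left out.

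MHC class I displays fragments of the proteins made inside a cell to CD8 T cells and natural killer cells. A heavy chain (H2-K1 and H2-D1 are the classical ones of this strain) pairs with β2-microglobulin (B2m), and the TAP1-TAP2 transporter carries peptides from the cytosol into the endoplasmic reticulum, where tapasin helps to load them. H2-T23 encodes the heavy chain of Qa-1, a non-classical molecule seen by inhibitory receptors of natural killer cells. NLRC5 is the transactivator of class I genes, and PSMB8 and PSMB9 replace catalytic subunits of the standard proteasome when cells meet interferon. Interferon is known to raise class I genes in many cell types, microglia included.

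RNA was sequenced from microglia of C57BL/6J mice, isolated from the whole brain with CD11b beads, in 30 libraries, 3 for each of 10 groups. Dams were injected with saline (Saline) or with poly(I:C), a double-stranded RNA analogue, for maternal immune activation (MIA), and their offspring were taken at E17, P7, P20 and P60. At P60 both kinds of offspring had been fed control chow only (CTRL), or chow with the CSF1R inhibitor PLX5622, which depletes microglia, and then control chow while the cells came back (MG-REP). Each library was made from 1 litter at E17, 3 pooled brains at P7 and 1 brain at P20 and P60, so a library is the unit of replication. Values are TPM, a level scaled by transcript length and library size. Unless another scale is named, a change is the difference of mean log2(TPM + 1) with its standard error (SE), and a row passed the test when its adjusted p-value by limma, with Benjamini-Hochberg adjustment over all 14225 rows, was under 0.05.

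The 3 genes at the core of class I, H2-K1, H2-D1 and B2m, share a promoter layout, and their start regions are shown because the members that rose together include 2 of them. Each window runs from 250 bases before to 50 bases after the annotated start and was read 5′ to 3′ on the strand of the gene, from RefSeq on GRCm38.p6, the build of the mm10 alignment. H2-K1 lies on the minus strand at chr17:34000298-34000597, H2-D1 on the plus strand at chr17:35262844-35263143 and B2m on the plus strand at chr2:122147437-122147736. The table gives H2-K1 2 starts, of which the first is shown, and both lie inside the gene's full extent given below. Capitals mark, in this order, GGGNNTTCC, GAANNGAAA (here on the other strand), and an X2 box (TGACG) followed by a Y box (ATTGG). GGGNNTTCC is a spelling of the kappa-B motif, and GAANNGAAA a spelling of the core of an interferon-stimulated response element. Other spellings of these elements were not searched.
H2-K1: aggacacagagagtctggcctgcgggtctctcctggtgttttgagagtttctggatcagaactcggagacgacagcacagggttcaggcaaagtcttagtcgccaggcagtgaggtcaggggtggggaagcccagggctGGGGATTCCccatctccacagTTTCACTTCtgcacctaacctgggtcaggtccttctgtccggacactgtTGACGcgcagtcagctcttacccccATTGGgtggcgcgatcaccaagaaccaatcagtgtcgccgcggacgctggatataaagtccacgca
H2-D1: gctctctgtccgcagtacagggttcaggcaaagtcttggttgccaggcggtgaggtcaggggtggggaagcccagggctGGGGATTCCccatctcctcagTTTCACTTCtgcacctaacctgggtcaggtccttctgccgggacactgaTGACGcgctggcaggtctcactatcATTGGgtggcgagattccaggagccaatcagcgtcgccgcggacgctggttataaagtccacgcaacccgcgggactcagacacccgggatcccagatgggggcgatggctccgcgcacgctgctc
B2m: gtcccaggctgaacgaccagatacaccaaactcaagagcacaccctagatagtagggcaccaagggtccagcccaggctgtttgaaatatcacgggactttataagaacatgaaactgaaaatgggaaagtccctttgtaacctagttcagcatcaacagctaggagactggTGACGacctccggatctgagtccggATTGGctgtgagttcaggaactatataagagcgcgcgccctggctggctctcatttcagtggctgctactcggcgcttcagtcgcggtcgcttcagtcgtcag
H2-K1 and H2-D1 hold all 4 motifs in the same order. B2m holds the X2 and Y boxes in capitals but no match to GGGNNTTCC or GAANNGAAA. Its window does hold gaaactgaaa and gggaaagtccc, whose spacing differs from the letters searched. They were not counted, so the search does not show that B2m lacks either element. In all 3 the X2 and Y boxes are 20 bases apart. Searched on both strands, GGGNNTTCC is found in 5.82% of all 32851 windows of this length, GAANNGAAA in 7.52%, TTCNNNGAA (the gamma-activated sequence) in 8.3%, TGACG in 20.8% and ATTGG in 37.4%. An X2 box followed on the same strand by a Y box after 15 to 25 bases, a combination chosen after these sequences were seen, is found in 0.435%. The 300-base windows of H2-K1 and H2-D1 were identical at 176 of 240 aligned bases (73.3%) at the best offset without gaps. The windows of Tap1 and Psmb9, genes that point away from each other, overlap by 275 of 300 bases, so both genes are read from 1 shared region, with 1 match each to ATTGG and TGACG and none to the other 3 motifs. The window of Psmb8 holds 1 match to TTCNNNGAA, and that of H2-T23 1 match to ATTGG. The H2-T23 window also holds tttctctttc, which on the other strand has the spacing of gaaactgaaa in B2m. It was not counted either, so the search does not show that H2-T23 lacks an interferon-stimulated response element. Windows were read for 7 of the 9 genes. The promoter set searched held no window for Tap2 or Nlrc5. A match of letters is a description and not a binding site.

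Of the 9 genes, 7 lie on chromosome 17 in the mouse MHC: H2-K1 at 33996012 to 34000619, Psmb9 at 34182030 to 34187330, Tap1 at 34187556 to 34197225, Psmb8 at 34198195 to 34201454, Tap2 at 34204479 to 34216321, H2-D1 at 35263094 to 35267497 and H2-T23 at 36029977 to 36032701 (RefSeq, GRCm38.p6). B2m lies on chromosome 2 at 122147687 to 122153082 and Nlrc5 on chromosome 8 at 94434335 to 94527272. Similar genes limit how reads of 40 bases can be told apart. Of the 40-base stretches of the H2-K1 transcript (NM_001001892), 11.6% also occur in H2-D1, 8.87% of those of H2-D1 (NM_010380) occur in H2-K1, and 38.9% of those of H2-T23 (NM_010398) occur in some other gene. No stretch of B2m or Nlrc5 occurs in another gene.

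The rows of Tap1 and H2-K1 call for care of another kind. The Tap1 transcript (NM_013683) shares 95.7% of its exonic bases with other RefSeq transcripts, namely a second Tap1 transcript without a row and Psmb9, and has 127 bases of its own. Over the table, the median of the mean TPM was 1.88 for 1553 rows with 90% or more of their bases shared, against 27.4 for 9722 rows with less than 10% shared. Tap1 stood at 0.83 to 4.17 TPM and Tap2 at 55.9 to 189 TPM, and these levels are not compared. H2-K1 shares 94.7% of its bases with a second H2-K1 transcript but was among the 80 most abundant rows.

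From the steps between low TPM, the libraries held an estimated 8040000 to 12800000 counted reads, which put about 9400 to 33000 reads behind B2m, 84 to 1000 behind Nlrc5 and 10 to 45 behind Tap1. Microglial markers were high throughout: C1qa ran from 4648 TPM (mean of the E17 MIA libraries) to 10571 TPM (MIA + MG-REP). In Saline + MG-REP, however, 8 of the 12 listed microglial rows were lower than in Saline + CTRL, against 14.9% of all rows called lower. None was higher. Some libraries stood apart. The first E17 MIA library had the highest neuronal sum (1236 TPM over 10 rows, against 200.6 and 208 in the other E17 MIA libraries) and the lowest microglial sum (25236 TPM). P7 MIA 3 had a microglial sum of 29240.0 TPM, against 43212 and 43030 in its group. Saline + MG-REP 2 had a sum of monocyte and neutrophil markers of 5599 TPM, with S100a8 up to 2754 TPM, against 122 and 379.8 in the other Saline + MG-REP libraries. Xist, which is transcribed from an inactive X chromosome, was at 159 to 174 TPM in all 6 MG-REP libraries. It was at 124 and 139.9 TPM in 1 CTRL library of each arm and at 0.14 to 0.29 TPM in the other 4 CTRL libraries. The Y-linked genes Ddx3y, Kdm5d, Eif2s3y and Uty summed to 268 to 318 TPM in those 4 libraries. In the MG-REP libraries they summed to 0.09 to 0.62 TPM. Sex was thus not balanced between MG-REP and CTRL, and its part cannot be fully told apart from that of repopulation. Each member is therefore also given against the CTRL library high in Xist. In bulk RNA, fewer cells of a type and less RNA per cell cannot be told apart.

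B2m and H2-K1 were among the most abundant microglial transcripts, and 8 of the 9 class I genes had their highest group mean in an MG-REP group. B2m had a mean of 5830 TPM over the 30 libraries, rank 12 of 14225 rows. H2-K1 followed with 1201 TPM, H2-D1 with 357 TPM, Psmb8 with 214 TPM, H2-T23 with 179.9 TPM, Tap2 with 128 TPM and Psmb9 with 119 TPM. Nlrc5 had a mean of 10.5 TPM and Tap1 of 1.81 TPM. Together the 9 rows made up 0.561% ± 0.128 of the TPM in E17 MIA and 1.25% ± 0.257 in Saline + MG-REP (SD, n = 3). Saline + MG-REP was the highest group for 7 genes and MIA + MG-REP for H2-T23 (the highest group of H2-K1 became MIA + MG-REP under quantile normalization, and that of H2-T23 Saline + MG-REP under median-ratio scaling), while Tap2 was highest in Saline + CTRL. E17 MIA was the lowest group for 8 genes. Of the 81 pairs of neighbours in these orders, 70 overlapped in their libraries, so the order of those groups is not resolved. Among the 11 that did not overlap are H2-D1, where MIA + MG-REP exceeded the next group by 0.60 (log2), and H2-T23, where P20 Saline exceeded P7 Saline by 0.89. The authors' table places 7 of the rows in a module named for repopulated adult microglia and Tap2 and H2-T23 in the adult module. These modules were formed on the same libraries and are no independent evidence.

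**Figure D1:**
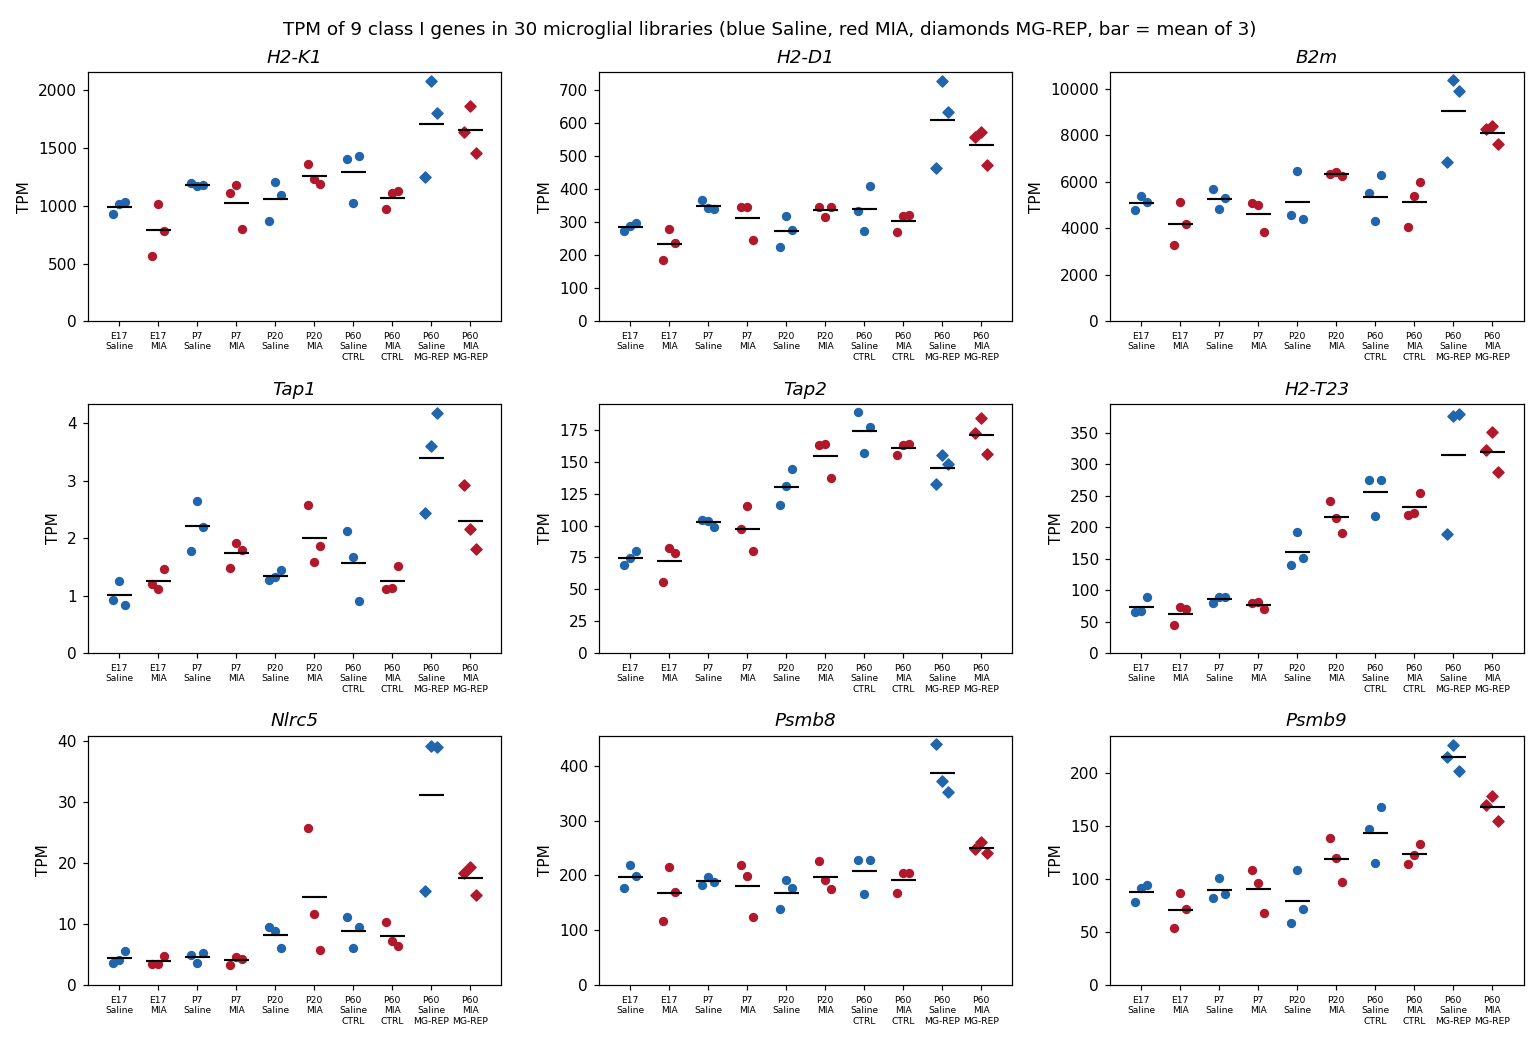
TPM (vertical axis, from 0) of each of the 9 genes in each library of the 10 groups (horizontal axis). Blue marks Saline, red MIA, diamonds MG-REP and bars the mean of 3 libraries. The MG-REP diamonds of H2-D1 lie between 465 and 727 TPM, above the highest other library at 409.7 TPM, while Tap2 and H2-T23 climb with age.

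The main question was how class I expression differed in repopulated microglia. In Saline offspring 6 of 9 genes rose with MG-REP and none fell, against 26.7% of all rows called in either direction and 11.9% called higher. The members' median change was 0.74 (log2), while the median of all rows was -0.14. The same 6 genes had MG-REP groups wholly above CTRL, which held for 14.9% of all rows. By role, both parts of the classical complex moved, although unequally.

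The light chain B2m stood at 5499, 4309 and 6284 TPM in the Saline + CTRL libraries. It was at 6833, 10369 and 9888 TPM in Saline + MG-REP. All MG-REP libraries were higher. The rise was 0.74 ± 0.20 (SE, n = 3 per group), 1.68-fold on this scale, with an adjusted p of 0.0059 (limma). H2-D1, a classical heavy chain, went from 334, 272 and 409.7 TPM to 465, 727 and 634 TPM, again without overlap. Its rise was 0.84 ± 0.17, 1.79-fold, adjusted p = 0.000646 by limma. H2-K1, the other classical heavy chain, was at 1406, 1023 and 1431 TPM in CTRL and at 1248, 2080 and 1801 TPM in MG-REP. Its change of 0.39 ± 0.20 did not pass (adjusted p = 0.146, limma), and the first MG-REP library lay inside the CTRL range. Without that library the change was 0.61 and passed (adjusted p = 0.036, limma). With each of the 6 libraries left out in turn it was 0.24 to 0.61, and in 5 of these fits it did not pass.

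Nlrc5, the class I transactivator, had the largest change of the set. It was at 11.1, 6.06 and 9.55 TPM with CTRL chow and at 15.4, 39.0 and 39.0 TPM after MG-REP, a rise of 1.62 ± 0.36, or 3.07-fold (adjusted p = 0.00155, limma). The first MG-REP library stood much closer to CTRL than the other two. H2-T23, the Qa-1 heavy chain, was at 275, 217 and 275 TPM in CTRL and at 189.6, 376 and 379 TPM in MG-REP, where the same first library lay below every CTRL library. Its change of 0.24 ± 0.21 did not pass (adjusted p = 0.443, limma), and without that library it was 0.57 (adjusted p = 0.0253, limma). With each of the 6 libraries left out in turn it was 0.07 to 0.57, and in 5 of these fits it did not pass. The first MG-REP library had the lowest value of its group for 7 of the 9 genes, all but Psmb8 and Psmb9.

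Of the 2 transporter subunits Tap1 was called higher and Tap2 was not called, and their changes were not tested against each other. Tap1 was at 2.12, 1.68 and 0.91 TPM in CTRL and at 2.43, 3.6 and 4.17 TPM in MG-REP, a rise of 0.78 ± 0.19 (adjusted p = 0.00265, limma) at few reads. Tap2 was at 189, 157 and 177 TPM in CTRL and at 133, 155 and 148 TPM in MG-REP, with every MG-REP library lower. Its difference of -0.26 ± 0.13 did not pass (adjusted p = 0.158, limma).

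Both immunoproteasome subunits rose. Psmb8 was at 228, 166 and 228 TPM in CTRL and at 439, 372 and 352 TPM in MG-REP. The groups were far apart, and the rise was 0.91 ± 0.19, 1.88-fold (adjusted p = 0.000976, limma). Psmb9 went from 147, 115 and 168 TPM to 216, 227 and 202 TPM, a rise of 0.59 ± 0.20 (adjusted p = 0.029, limma). The Psmb9 call was lost when any of 4 of the 6 libraries was left out (changes of 0.44 to 0.72 over the 6), under quantile normalization (0.52, adjusted p = 0.119) and with log2 Xist as a covariate (0.59, adjusted p = 0.101). Against the single Saline + CTRL library high in Xist, all 3 MG-REP libraries were higher for each of the 6 genes that rose. The differences were 0.48 for Tap1 to 1.29 for Nlrc5 between the means of log2(TPM + 1). For H2-K1, H2-T23 and Tap2 the MG-REP libraries were not all higher, with differences of 0.25, 0.13 and -0.38. A fit of only the 2 groups, which estimates the spread from fewer libraries, called 2 of 9 genes (Nlrc5 and Psmb8).

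**Figure D2:**
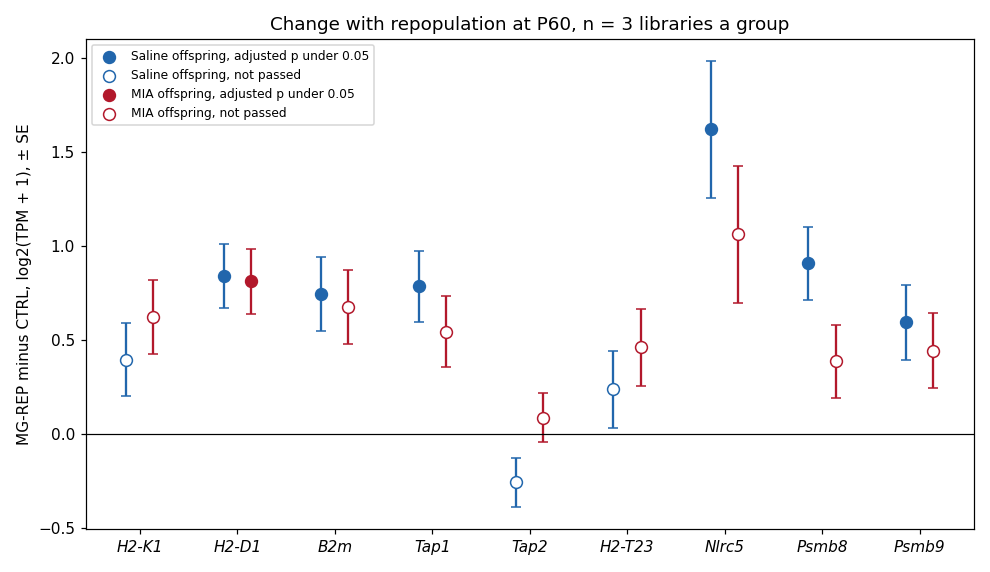
Change from CTRL to MG-REP at P60 on the log2(TPM + 1) scale (vertical axis) for each gene, in Saline (blue) and MIA (red) offspring. Bars are the SE of the fit, n = 3 libraries a group, and filled points passed an adjusted p of 0.05. Nlrc5 shows the largest change in both arms, and Tap2 the only value below 0, in Saline offspring.

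In MIA offspring the same comparison moved in the same direction for most genes but called little. H2-D1 was the 1 gene of 9 called, higher, against 0.555% of all rows called and 0.387% called higher. It was at 269.99, 318 and 321 TPM in MIA + CTRL and at 556, 571 and 471 TPM in MIA + MG-REP, a rise of 0.81 ± 0.17, 1.76-fold (adjusted p = 0.0232, limma). The MG-REP groups lay wholly above CTRL for 8 of 9 genes, all but Tap2, where 6.74% of all rows did so. The call of H2-D1 was lost under a replicate block (change 0.81, adjusted p = 0.051, limma), with log2 Xist as a covariate (adjusted p = 0.144), with either scaling (0.105 and 0.0569) and when any of 5 of the 6 libraries was left out, though the change stayed between 0.73 and 0.90 throughout the left-out libraries.

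B2m was at 4038, 5378 and 6008 TPM in MIA + CTRL and at 8251, 8396 and 7644 TPM in MIA + MG-REP. The difference was 0.67 ± 0.20 with an unadjusted p of 0.0022 and an adjusted p of 0.188 (limma). H2-K1 was at 968, 1113 and 1126 TPM against 1632, 1857 and 1459 TPM, a difference of 0.62 ± 0.20 that did not pass (adjusted p = 0.272, limma). Nlrc5, at 10.3, 7.2 and 6.33 TPM against 18.4, 19.3 and 14.7 TPM, differed by 1.06 ± 0.36 and did not pass (adjusted p = 0.368, limma). In each of these, MG-REP lay above every CTRL library.

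The remaining genes differed by less. Psmb8 was at 168, 205 and 204 TPM in MIA + CTRL and at 248, 261 and 242 TPM in MIA + MG-REP, a difference of 0.38 ± 0.19. Psmb9, H2-T23 and Tap1 differed by 0.44, 0.46 and 0.54, and Tap2 by 0.09 ± 0.13, none of which passed. Against the CTRL library high in Xist, all 3 MIA + MG-REP libraries were higher for every gene of the 9. That library, MIA + CTRL 1, had the lowest value of its group for every gene but Nlrc5. For Tap2 it was at 154.97 TPM, against 156.25 TPM in the lowest MIA + MG-REP library.

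The difference between the 2 repopulation effects was tested directly. This test and the comparison of both MG-REP groups reuse the libraries of the effects above and are no further evidence for them. For none of the 9 genes did the difference between the effects in MIA and Saline offspring pass (adjusted p from 0.267 to 0.982, limma), where 10.5% of all rows passed. At n = 3 this does not show that the effects were alike. The largest such differences were -0.56 ± 0.51 for Nlrc5 and -0.52 ± 0.27 for Psmb8, both below 0 and neither past the test at n = 3. H2-D1 differed by -0.03 ± 0.24. The comparison of MIA + MG-REP with Saline + MG-REP called 1 of 9 genes, against 22% of all rows: Psmb8 was lower in MIA + MG-REP by 0.62 on the log2 scale, adjusted p = 0.0225 (limma), with every library below those of Saline + MG-REP. This call was lost when any of 3 of the 6 libraries was left out (-0.69 to -0.53 over the 6; -0.53, adjusted p = 0.125, without Saline + MG-REP 1) and under quantile normalization (-0.49, adjusted p = 0.119). Psmb9 was lower in every MIA + MG-REP library, too (-0.36 ± 0.20, adjusted p = 0.221), and Nlrc5 had a change of -0.70 ± 0.36 (adjusted p = 0.187).

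Interferon-responsive genes were measured beside these values, since class I genes answer to interferon in many cells. In Saline offspring 29 of 33 interferon-stimulated rows rose with MG-REP, against 11.9% of all rows called higher. None fell, and the median was 1.63. Ifi27l2a rose from a mean of 23.8 to 443 TPM, Ifi204 from 15.8 to 203 TPM and Oas3, a sensor of double-stranded RNA, from 2.04 to 28.0 TPM. In MIA offspring 3 of 33 rows passed, all higher (Ifi204, Oas1a and Ifi27l2a), against 0.387% of all rows called higher. Of the 33 rows 33 were above 0, with a median of 0.52. The test of the difference called 12 of 33 of these rows lower in MIA and none higher, against 10.5% of all rows called and 6.09% called lower. None of the class I genes was called, a count too small to set them apart from that share. Of 11 rows for interferon-gamma GTPases, Gbp8 rose and Irgm2 fell in Saline offspring, and none passed in MIA offspring. Summed over the 33 rows, the interferon-stimulated level was 961 to 1409.6 TPM in the Saline + CTRL libraries. It was 2985 to 5412 TPM after MG-REP in Saline and 1401 to 1776 TPM after MG-REP in MIA offspring. The part of this difference in the class I values was not tested.

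Markers of other cell types gave no rise that covered a whole list. Over all rows, 11.9% were called higher and 14.9% lower with MG-REP in Saline offspring. In Saline + MG-REP, of 7 NK and T cell rows 1 was higher (Ccl5, up to 226 TPM) and 3 were lower, of 13 endothelial rows 3 were lower and none higher, and of 12 monocyte and neutrophil rows 1 was higher (Ccr2) and 1 lower. Of 8 rows for macrophages at the borders of the brain 2 were higher (Siglec1 and Pf4) and 1 lower. These genes were named after their values were seen. Summed over the border macrophage rows, the level was 904 to 1197 TPM in Saline + CTRL and 1341 to 2373 TPM in Saline + MG-REP, without overlap. In MIA offspring this sum was 885 to 973 TPM in CTRL and 694 to 868 TPM in MG-REP, lower without overlap. Summed over the NK and T cell rows, the level was 23.1 to 70.1 TPM in Saline + CTRL. It was 21.3 to 230 TPM in Saline + MG-REP, with overlap. In MIA offspring the NK and T cell sum was 24.9 to 50.2 TPM in CTRL and 53.0 to 76.2 TPM in MG-REP, higher without overlap. Gzma, Gzmb and Ncr1, picked from this list, were at 0 in at least 1 Saline + MG-REP library. MHC class II, which is carried by other antigen-presenting cells, had 1 row of 9 higher and 3 lower in Saline offspring. In MIA offspring 1 of 9 was called, higher, against 0.387% of all rows called higher, and 9 of 9 were above 0 (median 0.47). The summed class II level was 1165 to 1554 TPM in MIA + CTRL and 1804 to 2231 TPM in MIA + MG-REP, without overlap. The part of these in the class I values was not tested.

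Other genes of the class I pathway were mixed. Of 18 rows outside the 9, 5 rose and 4 fell in Saline + MG-REP, against 11.9% of all rows called higher and 14.9% lower. Sec61b, a subunit of the translocation channel of the endoplasmic reticulum, rose from a mean of 55.2 to 128 TPM, and Ube2l6, an enzyme that attaches ISG15, from 36.6 to 73.1 TPM. H2-M2 rose from 0.23 to 1.52 TPM, at few reads. Fcgrt, the heavy chain of the neonatal Fc receptor, fell from 298 to 139.8 TPM, Hfe from 212 to 104 TPM and Cd1d1, a lipid-presenting class I-like molecule, from 14.7 to 5.18 TPM. In MIA offspring H2-M3, which presents formylated peptides, was the only row of the 18 called, against 0.387% of all rows called higher. It rose by 0.83 ± 0.19, 1.78-fold (adjusted p = 0.0409, limma).

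The listed proteasome rows rose in Saline + MG-REP, where 11.9% of all rows were called higher and 14.9% lower. All 4 listed immunoproteasome rows beside Psmb8 and Psmb9 rose, among them the activator subunit Psme1 (mean 236 to 475 TPM) and Psmb10 (155 to 217 TPM). All 3 constitutive catalytic subunits rose as well: Psmb5 by 0.41, Psmb6 by 0.50 and Psmb7 by 0.47 on the log2 scale. None of these 7 rows passed in MIA offspring. Among 13 rows for transcription factors of class I genes, 1 rose and 2 fell in Saline offspring. Rela, a subunit of NF-kappa-B, fell from 247 to 166 TPM and Rfx5, a subunit of the factor that binds the X box, from 40.2 to 31.4 TPM. Stat2, chosen after its values were seen, rose by 0.86 (log2), with overlapping groups.

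**Figure D3:**
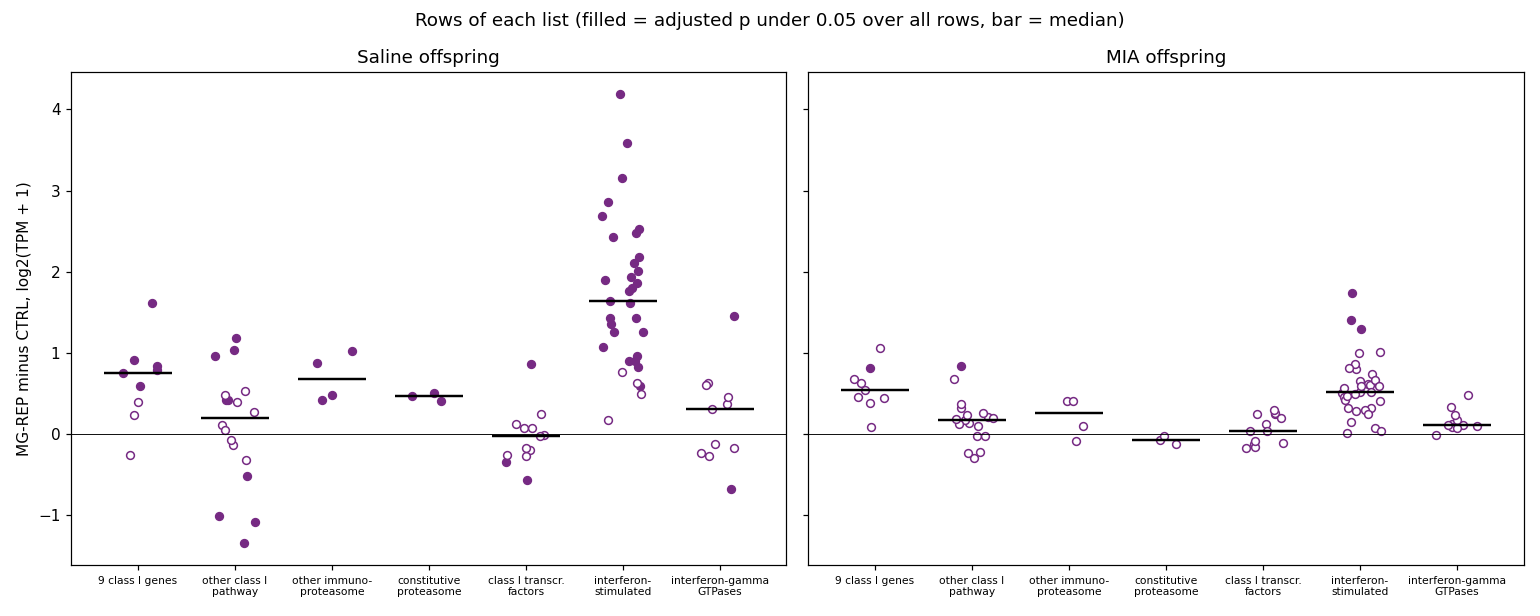
Change from CTRL to MG-REP at P60 (vertical axis, log2(TPM + 1)) of every row of each list, in Saline (left) and MIA (right) offspring. Filled points passed an adjusted p of 0.05 over all 14225 rows and bars are medians. The interferon-stimulated median is 1.63 in Saline and 0.52 in MIA offspring, and that of the 9 class I genes 0.74 and 0.54.

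Ratios between partners were computed after their values were seen. H2-K1 to H2-D1 was 3.82 ± 0.365 (SD, n = 3) in Saline + CTRL and 2.80 ± 0.0955 after MG-REP, a difference of -1.02, with every MG-REP library below every CTRL library. In MIA offspring it was 3.53 ± 0.0480 in CTRL and 3.09 ± 0.158 in MG-REP, also without overlap. The exact permutation test, two-sided, gave p = 0.1 for each, the smallest that 3 against 3 libraries allow, and 0.16 adjusted over 8 ratio tests. Reads shared between H2-K1 and H2-D1 may be placed at either gene, so this ratio depends on the counting. Psmb8 to Psmb5, an immunoproteasome subunit and the constitutive one it replaces, was 1.75 ± 0.201 at E17, 3.37 ± 0.925 with CTRL chow at P60 and 4.67 ± 0.435 after MG-REP in Saline offspring. The MG-REP range, 4.21 to 5.08, overlapped that of CTRL, 2.56 to 4.38 (exact permutation p = 0.2, 0.267 adjusted). In MIA offspring it was 3.03 ± 0.175 in CTRL and 4.08 ± 0.578 in MG-REP, without overlap. The other pairs overlapped between CTRL and MG-REP in Saline offspring: Psmb9 to Psmb6 was 0.833 ± 0.149 in CTRL and 0.894 ± 0.188 in MG-REP (exact permutation p = 0.8), and Psmb10 to Psmb7 was 0.634 ± 0.0687 and 0.643 ± 0.0868 (p = 0.9, exact permutation), each with 0.9 after adjustment. In MIA offspring Psmb9 to Psmb6 was 0.703 ± 0.116 in CTRL and 1.00 ± 0.110 in MG-REP, and Psmb10 to Psmb7 0.651 ± 0.0418 and 0.761 ± 0.0566. Neither pair overlapped (exact permutation p = 0.1 for each, 0.16 adjusted).

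**Figure D4:**
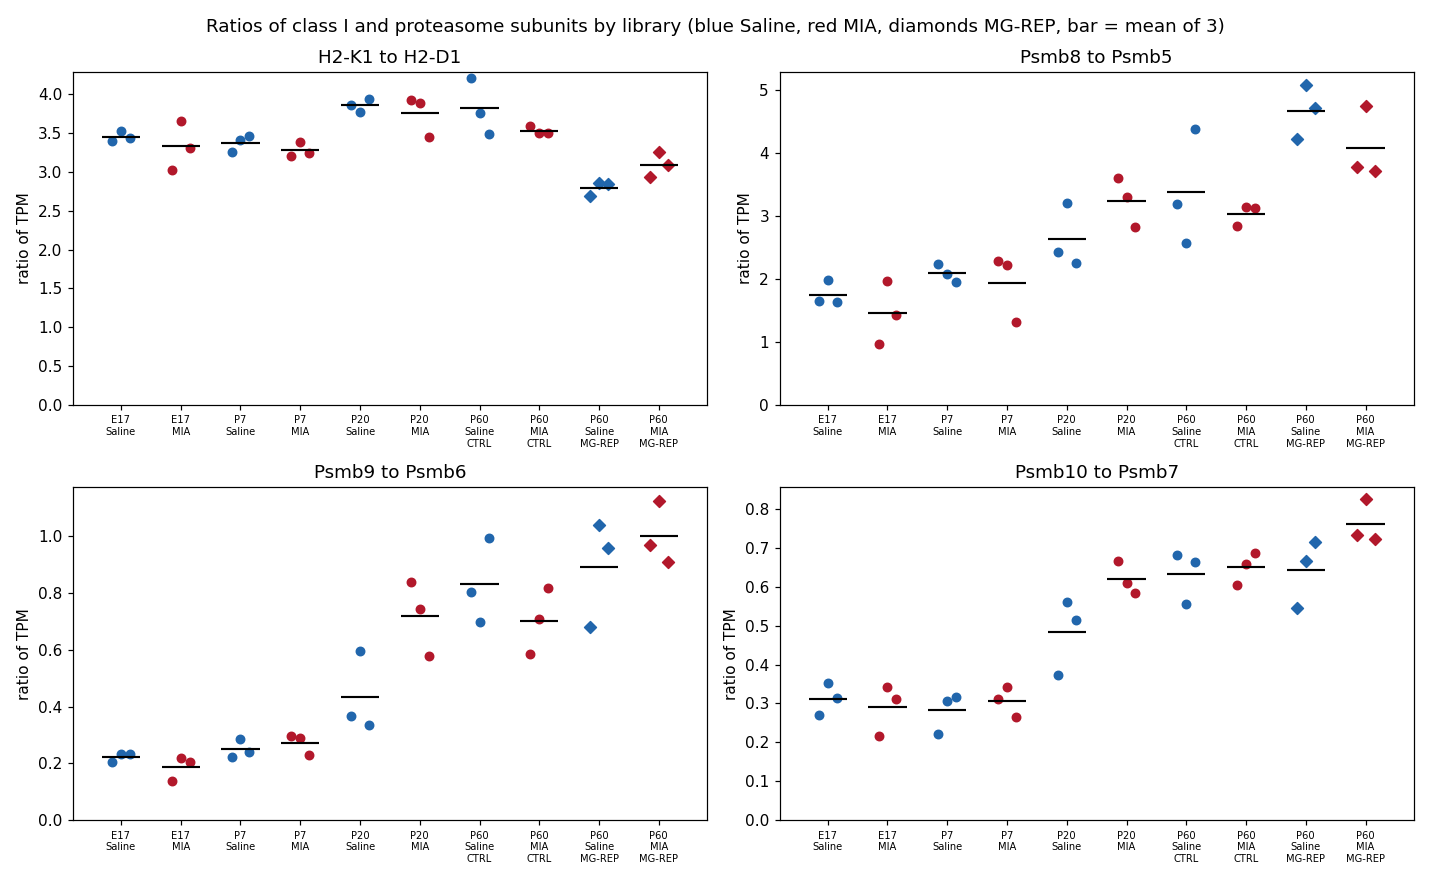
Ratio of TPM (vertical axes, from 0) in each library for H2-K1 to H2-D1 and for each immunoproteasome subunit to the constitutive subunit it replaces. Bars are means of 3 libraries, blue Saline, red MIA, diamonds MG-REP. H2-K1 to H2-D1 is lowest in the MG-REP groups, and the proteasome ratios are higher from P20 on than at E17.

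Over age Tap2 and H2-T23 rose most clearly. From E17 to P60 in Saline offspring, 3 of 9 genes rose and none fell, against 47.5% of all rows called and 22.1% called higher. H2-T23 went from 65.9, 66.2 and 88.8 TPM at E17 to 275, 217 and 275 TPM in Saline + CTRL, a rise of 1.79 ± 0.21 or 3.45-fold (adjusted p = 1.73e-07, limma). Tap2 went from 68.9, 74.4 and 80.0 TPM to 189, 157 and 177 TPM, a rise of 1.22 ± 0.13 or 2.32-fold (adjusted p = 7.6e-08, limma). Psmb9 rose by 0.68 ± 0.20 (adjusted p = 0.00674, limma). The other 6 genes, B2m, Psmb8 and both classical heavy chains among them, had changes of 0.06 to 0.85 that did not pass.

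In MIA offspring 4 of 9 genes rose and none fell from E17 to P60, against 48.1% of all rows called and 19.3% called higher. H2-T23 rose by 1.90 ± 0.21, Tap2 by 1.16 ± 0.13 and Psmb9 by 0.82 ± 0.20, in all 3 cases with adjusted p-values by limma from 7.69e-08 to 0.00162. H2-K1 rose by 0.48 ± 0.20 (adjusted p = 0.0467, limma), a call that was lost when any of 4 of the 6 libraries was left out. Without E17 MIA 1 the change was 0.25. Whether the 2 arms differed over age was not tested.

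For H2-T23 the largest step lay between P7 and P20 in both arms, while the changes of Tap2 in Saline offspring were alike in size at the 3 steps, 0.46, 0.34 and 0.42, of which the last did not pass (adjusted p = 0.0795, limma). In Saline offspring from P7 to P20, 2 of 9 genes rose, against 36.2% of all rows called and 16.1% called higher. H2-T23 went from 79.5, 88.3 and 89.9 TPM to 139.98, 192 and 151 TPM, a rise of 0.89 ± 0.21 (adjusted p = 0.00166, limma). Tap2 rose by 0.34 ± 0.13 (adjusted p = 0.0486, limma), a call lost when any of 5 of the 6 libraries was left out. In MIA offspring 3 of 9 rose at this step, against 35.6% of all rows called and 13.1% called higher. H2-T23 went from 80.3, 80.9 and 70.5 TPM to 242, 215 and 191 TPM, a rise of 1.47 ± 0.21. Tap2 rose by 0.67 ± 0.13 and Nlrc5 by 1.39 ± 0.36 (adjusted p = 0.00422, limma). Nlrc5 was at 3.32, 4.58 and 4.23 TPM at P7 and at 25.8, 11.6 and 5.77 TPM at P20, with the first P20 library far above the others. Without that library the change was 0.88 and did not pass (adjusted p = 0.0549, limma).

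The earlier and later steps were smaller. From E17 to P7, 2 of 9 genes rose in Saline offspring, against 4.32% of all rows called and 3.09% called higher. Tap1 rose by 0.67 ± 0.19 and Tap2 by 0.46 ± 0.13 (adjusted p = 0.0402 and 0.047, limma). Leaving out any 1 of the 6 libraries left neither called. None of 9 passed in MIA offspring, against 2.39% of all rows. From P20 to P60 in Saline offspring 1 of 9 genes was called, against 3.51% of all rows called and 1.02% called higher. Psmb9 rose by 0.87 ± 0.20 (adjusted p = 0.0161, limma), from 58.5, 109 and 71.7 TPM to 147, 115 and 168 TPM. This call was lost when any of 4 of the 6 libraries was left out (0.68 to 1.12 over the 6), and with log2 Xist as a covariate (0.88, adjusted p = 0.119). None of 9 passed in MIA offspring, against 2.6%. All P20 libraries were high in Xist, and 2 of 3 CTRL libraries of each arm at P60 were not. Every E17 and P7 library but P7 MIA 2 held both Xist and Y-linked RNA. Sex was thus not balanced between ages, and its part cannot be fully told apart from that of age.

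**Figure D5:**
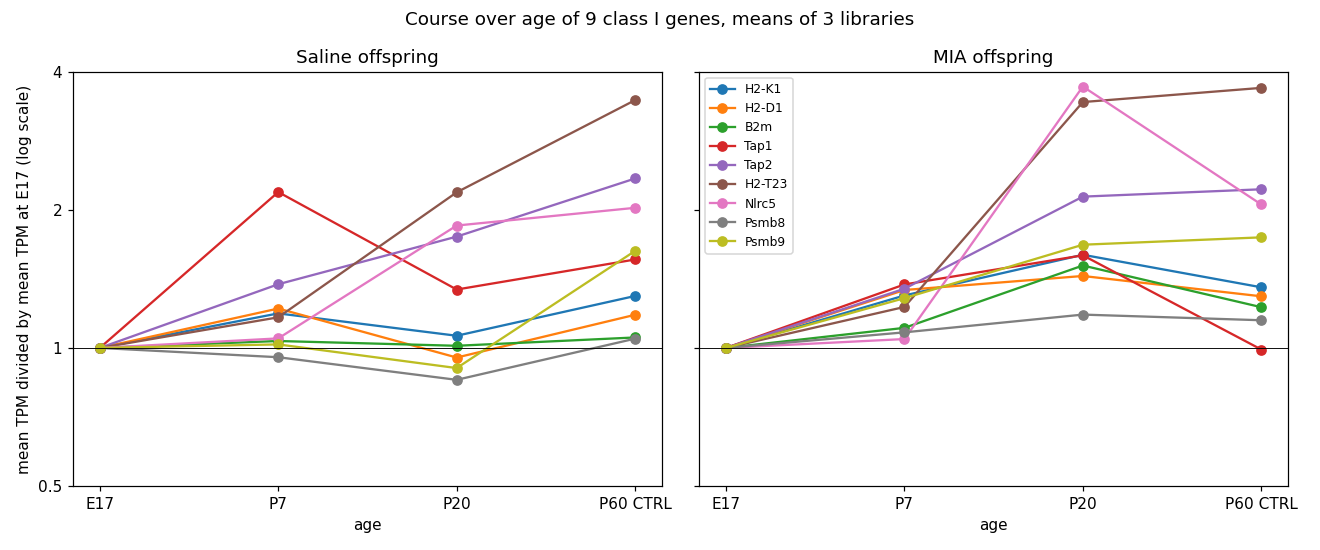
Mean TPM of each gene divided by its own mean at E17 (vertical axis, log scale) at 4 ages, for Saline (left) and MIA (right) offspring without MG-REP. Each point is a mean of 3 libraries, without its error. H2-T23 and Tap2 climb in both panels, by 1.79 and 1.22 (log2 change from E17 to P60) in Saline offspring.

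The constitutive proteasome went the opposite way over age, with all 3 of its rows lower at P60 than at E17 in both arms (median -0.85 in Saline and -0.87 in MIA offspring). Over all rows, 22.1% were called higher and 25.4% lower in Saline offspring from E17 to P60. In MIA offspring these shares were 19.3% and 28.8%. Of the 9 MHC class II rows, 9 rose in each arm, with medians of 2.08 and 2.14. Among the 12 microglial markers 8 rose and 1 fell in Saline offspring, and 9 rose in MIA offspring, and the part of these markers in the values of Tap2 and H2-T23 was not tested.

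MIA against Saline was compared at each age. At E17, P7, P20 and P60 CTRL, none of 9 genes passed, as 0% of all rows did by limma, while 585, 335, 457 and 256 rows had an unadjusted p under 0.05. The sign of the difference was nonetheless shared by most of the 9 genes at each age. At E17 8 of 9 had lower means in MIA, with a median change of -0.28. H2-K1 was at 928, 1017 and 1028 TPM in Saline and at 561, 1019 and 785 TPM in MIA, so that the groups overlapped. The first E17 MIA library, highest in neuronal and lowest in microglial markers, held the lowest value of all 30 libraries for 7 of the 9 genes, and without it the median change was -0.08, with 7 of 9 below 0. Without E17 MIA 2 it was -0.45. Of the listed markers at E17, 1 of 12 microglial rows was above 0, against 10 of 10 neuronal and 13 of 13 endothelial rows. At P7 9 of 9 were lower in MIA (median -0.15), with P7 MIA 3 the lowest of its group for 7 genes, and without that library the median was -0.05, with 6 of 9 below 0. Without P7 MIA 2 it was -0.23.

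At P20 9 of 9 genes were higher in MIA, with a median of 0.32 where the median of all rows was -0.05. Psmb9 was at 58.5, 109 and 71.7 TPM in Saline and at 139, 120.1 and 97.3 TPM in MIA, a difference of 0.60 ± 0.20 with an unadjusted p of 0.0059 that did not pass over all rows (adjusted p = 1.00, limma). Tap1, at 1.28, 1.32 and 1.45 TPM against 2.58, 1.58 and 1.86 TPM, was the only gene whose groups did not overlap. Without P20 MIA 1 the median was 0.21. Of the 33 interferon-stimulated rows 30 were also above 0 at this age. Markers of cell types moved with the class I values: 12 of 12 microglial rows were above 0 (median 0.20), against 0 of 9 oligodendrocyte rows (median -0.37), 1 of 11 astrocyte rows (-0.32) and 1 of 10 neuronal rows (-0.29). The part of these in the class I values was not tested. With CTRL chow at P60, 9 of 9 were below 0 in MIA, from -0.06 for B2m to -0.25 for H2-K1, with a median of -0.14. The median was -0.05, -0.25 and -0.08 without Saline + CTRL 1, 2 and 3, with 8, 9 and 7 genes below 0, and 8 were below 0 under quantile normalization. At this age 1 of 12 microglial rows was above 0 (median -0.14), against 11 of 11 astrocyte rows (median 0.59) and 10 of 10 neuronal rows (0.34), and their part was not tested either. That 9 genes share a direction within 1 set of libraries is not independent evidence, since their values are correlated between libraries.

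How closely the genes moved together was described over the 30 libraries, which share depth and composition. H2-K1 and H2-D1 had the closest pair (Pearson r = 0.94, and 0.95 on deviations from group means). H2-K1 and B2m had r = 0.92, Tap2 and H2-T23 0.93 and Psmb8 and Psmb9 0.88. Across the 36 pairs r ran from 0.39 to 0.94. On deviations from group means, Tap1 had r = -0.04 with Psmb8 and 0.01 with Psmb9, its neighbour across the shared start region, and 0.09 with H2-D1. Tap1 had the fewest reads of the 9.

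Among the 6724 rows whose group means spanned at least 1 (log2), the 5 whose 10 group means were most like the mean z-score of the 9 genes were Tor3a (r = 0.986), Lat2 (0.976), 9330175E14Rik (0.973), Sp100 (0.972) and Eif4e3 (0.962). Tor3a ran from a mean of 53.7 TPM in E17 MIA to 141 TPM in Saline + MG-REP and Sp100, which is also on the interferon-stimulated list, from 6.81 to 49.1 TPM. The mean z-score itself ran from -1.19 in E17 MIA to 1.09 in MIA + MG-REP and 1.57 in Saline + MG-REP.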

How the data were processed

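Groups were taken from the sample labels (10 groups, 30 libraries). The authors mapped 40-base single-end reads of libraries without strand to mm10 (Rsubread), summarized them per feature with featureCounts and annotation from UCSC, and dropped genes of low count. Versions are not given in the sources used here. The deposited values are TPM, computed by the authors for 14225 transcripts. The authors tested the counts with edgeR. The deposited file holds no counts, so no count model was fitted here. No columns of other samples were set aside (0).

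Log2(TPM + 1) was fitted with limma 3.58.1 in R 4.3.3, with all 30 libraries in 1 linear model over groups, a mean-variance trend and 16 contrasts. The p-values are two-sided and adjusted by Benjamini-Hochberg over all rows at 0.05. A log2 change on this scale understates the change of low genes. Exact permutation tests used 3 against 3 libraries. Depth was estimated from TPM times transcript length (GENCODE release M21, found for 14005 rows) as the step at which low values come closest to whole reads. Within a tolerance of 0.2, 71.2% to 77.6% of low values were whole in a library, where 40% would be by chance, so that read numbers are approximate. TPM keeps no counting error of its own.

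Promoters came from RefSeq (GRCm38.p6), and motifs were searched with Python 3.11.15. The genes of the set and all gene lists were chosen with earlier results of these data known. Genes outside the set were named by rule: up to 3 rises and 3 falls by size per list among rows past 0.05 in an MG-REP contrast whose groups do not overlap, and the 5 rows most like the set. All further genes were picked with their values known.

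Library numbers 1 to 3 recur in every group. Deviations from group means correlated above 0.1 in all 3 same-numbered pairs for 1 of 9 pairings of groups, P20 Saline with P20 MIA (r = 0.10 to 0.24), and not for the others. The numbers come from the labels, which do not say what they mark. Alternatives were a pseudocount of 0.1, median-ratio scaling, quantile normalization, rows limited to a mean TPM of 1 or more, a replicate block, a fit restricted to the compared groups, a covariate of log2 Xist, a fit without the trend and each library left out. Leaving out 2 pairs of libraries that stood apart was chosen after seeing the data. The paper's behavior, histology and protein data were not analysed here.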

Additional observations from a re-analysis of the deposited data

How the results depend on the processing

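The 6 calls of MG-REP in Saline offspring were 5 to 7 when a library was left out, 5 under quantile normalization and with log2 Xist as a covariate, and 2 in a fit of only the groups compared. The 1 call of MG-REP in MIA offspring became 0 under median-ratio scaling, under a replicate block, with log2 Xist and without both Saline + MG-REP 1 and MIA + CTRL 1 (a choice made after seeing the data), and was 0 to 1 without a library. The 1 call of MIA + MG-REP against Saline + MG-REP became 2 under median-ratio scaling and in a fit of only the groups compared, and 0 to 1 without a library. Of the age steps, the 2 calls from E17 to P7 in Saline offspring became 0 under median-ratio scaling and quantile normalization, 1 under a replicate block, with only the groups compared, with log2 Xist or without a trend, and 0 without any library. From P7 to P20 in Saline the 2 calls became 1 under a pseudocount of 0.1, either scaling, only the groups compared, log2 Xist or no trend, and 1 to 2 without a library. The 1 call from P20 to P60 in Saline became 0 with only the groups compared or log2 Xist, and 0 to 1 without a library. The 3 calls from E17 to P60 in Saline became 5 under quantile normalization. The 0 calls from E17 to P7 in MIA became 0 to 1 without a library. The cause of these changes was not tested.

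None of the changes of single genes in the 2 MG-REP effects, nor of the genes called in the other comparisons, reversed its direction. Some uncalled genes did: from E17 to P7 in Saline offspring 8 of 9 genes were above 0 as reported and 6 under median-ratio scaling. Among the tested values of single genes under alternatives, 417 kept their side of the threshold, 73 no longer passed and 5 newly passed, among them B2m in MIA offspring under quantile normalization (0.62, adjusted p = 0.031 by limma). The number of genes highest in an MG-REP group was 8 of 9 as reported, under both scalings, with a pseudocount of 0.1 and over rows whose mean TPM reached 1. Median-ratio scaling moved the median of all rows for MG-REP in Saline from -0.14 to -0.05 and the share of higher calls among all calls from 44.3% to 57.5%. The replicate block changed no other count of calls by over 1.5 times. The call of H2-D1 in Saline offspring was lost in a fit of only the groups compared (adjusted p = 0.0518). Estimated read numbers of 10 to 45 limit Tap1 most.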
